A study of Mus musculus with 7 samples.

Results

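The myeloid lineage transcription factors described here are 10 genes taken by name: Zeb2, Id2, Runx3, Runx1, Irf8, Irf4, Spi1, Klf4, Batf3 and Cebpb. The donor expression table holds 15155 genes, of which 8 were members, and all 8 passed the filter on low values. Irf8 and Cebpb were not analysed here in donor cells. All 10 were among the 23737 genes of the host table and the 26383 genes of the keratinocyte table.

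The study followed the repair of the Langerhans cell network after transplantation. Bone marrow of female C57BL/6 donors (CD45.1) was given to male C57BL/6 hosts (CD45.2) after lethal irradiation, and cells were sorted from the epidermis 3 weeks later for droplet-based single-cell RNA sequencing. Donor CD11b+MHCII+ cells gave 3 libraries labelled as bone marrow transplant (BMT) and 1 library labelled as BMT plus T cells. Host CD11b+MHCII+ cells gave 1 BMT library, and CD45-negative keratinocytes gave 1 library per label. The series design gives T cells (CD4, and CD8 from Matahari mice) to the transplanted mice without naming a group without them, so a comparison of BMT with BMT plus T cells is a comparison of labels. Per the study's methods, cells came from pooled mice and separate sorts, so the libraries are not single animals, and nothing in the labels ties a library to its mice.

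These factors decide between macrophage, dendritic cell and Langerhans cell programmes. Spi1 encodes PU.1, which is needed for all of these lineages and acts with the interferon regulatory factors Irf4 and Irf8. Klf4 and Cebpb belong to monocyte differentiation, and Zeb2, a zinc finger factor that binds E-boxes, maintains macrophage identity in several tissues. Langerhans cells are known to need Runx3 and Id2, an inhibitor of E proteins that does not itself bind DNA. Irf4 and Batf3, an AP-1 family factor, are known from migrating and conventional dendritic cells, and Runx1 from blood stem cell and myeloid development.

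Promoters are shown for Zeb2, Irf4 and Batf3, whose levels spanned the widest range between donor clusters, and for Runx3, because some of these factors bind motifs of the others. RefSeq starts on GRCm38.p6, the build of the deposited files, gave 15 windows of 250 bases before a start for 9 of the 10 members, and Spi1 was not in the promoter table. Each window was searched on both strands for RUNX (TGTGGT), PU.1 (GAGGAA), a composite of PU.1 and IRF letters (GGAA and GAAA, 2 bases apart), AP-1 (TGANTCA), the Zeb2 E-box (CACCTG), C/EBP (TTGCNNAA) and KLF (CCCCACCC). PU.1 and the composite can overlap by their shared letters. On the same build the genes lie at chr2:44983512-45117442 (Zeb2), chr13:30749233-30766981 (Irf4), chr1:191098414-191108943 (Batf3) and chr4:135120645-135177990 (Runx3). Capitals mark every match, and letters run 5′ to 3′ towards the start. The windows are chr2:45117443-45117692 (minus strand) and chr2:45110278-45110527 (minus strand) for 2 of the 4 listed Zeb2 starts, chr13:30748983-30749232 (plus strand) for Irf4, chr1:191098164-191098413 (plus strand) for Batf3 and chr4:135120395-135120644 (plus strand) for the upstream of 2 listed Runx3 starts.
Zeb2 start 1: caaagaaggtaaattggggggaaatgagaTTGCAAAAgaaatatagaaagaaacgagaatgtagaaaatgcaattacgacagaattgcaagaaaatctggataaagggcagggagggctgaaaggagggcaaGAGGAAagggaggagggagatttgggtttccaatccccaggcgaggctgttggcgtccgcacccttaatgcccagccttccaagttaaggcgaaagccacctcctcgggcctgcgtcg
Zeb2 start 4: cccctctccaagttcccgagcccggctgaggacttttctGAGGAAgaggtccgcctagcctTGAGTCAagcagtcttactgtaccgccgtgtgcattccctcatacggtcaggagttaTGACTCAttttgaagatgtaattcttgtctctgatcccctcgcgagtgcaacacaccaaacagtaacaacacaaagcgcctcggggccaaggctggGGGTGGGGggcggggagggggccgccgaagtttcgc
Irf4: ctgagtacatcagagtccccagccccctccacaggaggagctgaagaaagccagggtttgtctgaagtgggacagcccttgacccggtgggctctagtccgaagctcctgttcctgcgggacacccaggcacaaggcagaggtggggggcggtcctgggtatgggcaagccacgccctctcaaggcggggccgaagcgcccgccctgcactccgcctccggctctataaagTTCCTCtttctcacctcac
Batf3: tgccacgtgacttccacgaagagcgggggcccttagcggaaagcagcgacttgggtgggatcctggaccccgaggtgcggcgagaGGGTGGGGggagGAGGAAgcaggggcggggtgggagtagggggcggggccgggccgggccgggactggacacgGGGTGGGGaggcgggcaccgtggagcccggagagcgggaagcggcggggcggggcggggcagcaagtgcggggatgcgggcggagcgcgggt
Runx3 upstream start: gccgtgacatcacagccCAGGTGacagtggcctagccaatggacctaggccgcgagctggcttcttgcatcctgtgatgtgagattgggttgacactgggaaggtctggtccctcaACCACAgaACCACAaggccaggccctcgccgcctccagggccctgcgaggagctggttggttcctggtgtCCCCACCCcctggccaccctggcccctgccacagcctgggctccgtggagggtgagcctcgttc

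The Zeb2 windows held PU.1 letters before each of the 4 listed starts (windows 2 and 3 overlap), and window 4 also held 2 AP-1 matches and 1 KLF match. Zeb2 window 1 held 1 C/EBP match. Irf4, Batf3 and Runx1 window 2 held PU.1 letters too, so 4 of 9 members had at least 1 such match. Of all 32536 promoter windows of this length, 23.4% held them. That share counts single windows, while a member can have up to 4, so the count of members cannot be set against it. The upstream Runx3 window held 2 RUNX matches, between 134 and 121 bases before the start, and an E-box match. RUNX letters stood in 14% of all windows, E-box letters in 17.3%, AP-1 in 6.73%, C/EBP in 9.57% and KLF in 9.12%. E-box letters were also found before Runx1 and Irf8. The composite of PU.1 and IRF was in 2.31% of all windows and in no member window searched. Id2, Klf4 and Cebpb windows held none of the 7 motifs. A match is a match of letters, not a measured binding site.

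Levels are given as mean unique molecular identifiers (UMIs) per 10000 UMIs of a cell (CP10K), averaged over the cells of a cluster in a library, for clusters with at least 20 cells. The donor libraries held 2572, 8382 and 226 cells (BMT replicates 1 to 3) and 719 cells (BMT plus T cells), at 7022 to 13387 median UMIs per cell. The 9 cluster names are those deposited by the study: Mono, ISG monocytes (interferon-stimulated genes), Hmox1+ monocytes, S100a+ monocytes, Mrc1+ macrophages, MC (converting monocyte-derived cells) and the resident, cycling and migrating monocyte-derived Langerhans cells (mLC). Of 23 marker genes checked, 18 were highest in the cluster they name. The exceptions were Mrc1 and Arg1, which were higher in S100a+ and Hmox1+ monocytes than in Mrc1+ macrophages, and Ccl17, Mgl2 and Dcstamp, which were higher in migrating mLC than in MC. Between any pair of libraries 0 to 7 cell barcodes were shared. The S100a+ cluster had at least 20 cells in BMT replicate 2 only, and migrating mLC in BMT replicates 1 and 2 only.

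The clusters were made by the study from the expression values of these same cells, so a test between clusters describes how the factors sit in the annotation and is not independent evidence about it. Differences are log2 of (CP10K + 0.1) from limma fitted over all genes with library as a block, and a member is said to rise or fall where the Benjamini-Hochberg adjusted p was under 0.05.

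In resident mLC Zeb2, Klf4, Batf3, Irf4 and Runx1 were lower than in Mono, Id2 and Runx3 were higher, and Spi1 did not pass the test. That is 7 of 8 members, where 32.7% of the 7267 genes tested passed, 18.4% higher and 14.3% lower. Zeb2, Klf4 and Batf3 also passed the study's thresholds, which add an absolute log2 difference above 2 and which 4.06% of genes passed. The median over the 8 members was a log2 difference of -1.02, beside 0.14 over all genes tested.

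In Mono Zeb2 stood at 1.64, 2.43, 1.89 and 1.80 CP10K, with the 3 BMT replicates first and the BMT plus T cells library last. In resident mLC the levels were 0.471, 0.357, 0.0331 and 0.0910 in the same order. The groups did not overlap, and the 2 lowest resident values came from BMT replicate 3 and the BMT plus T cells library. The log2 difference was -2.82 (SE 0.28, adjusted p 2.11e-08).

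Klf4, the monocyte factor, was at 1.11, 1.82, 2.94 and 3.16 CP10K in Mono, in the same library order. Resident mLC held 0.286, 0.397, 0.296 and 0.266 CP10K. Mono varied widely between libraries while resident mLC were nearly level, and the log2 difference was -2.42 (SE 0.23, adjusted p 8.51e-09). Keratinocytes express Klf4 strongly, and keratinocyte marker RNA (3 of 4 listed markers, summed) was at 0.322 to 1.52 CP10K in Mono and 0.297 to 1.01 in resident mLC. Its part in the Klf4 result was not tested.

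Batf3 was at 0.491, 0.938, 1.10 and 1.22 CP10K in Mono and at 0.120, 0.163, 0.0156 and 0.0439 in resident mLC, in the same library order. The resident values of BMT replicates 1 and 3 rested on 11 and 3 UMIs. The log2 difference was -2.49 (SE 0.35, adjusted p 4.47e-06), and it had the same sign in 4 of 4 libraries. Irf4 was low in both clusters, at 0.113 to 0.507 CP10K in Mono and 0.00945 to 0.170 in resident mLC, so that the ranges overlapped between libraries. The lowest Irf4 value in resident mLC, that of BMT replicate 1, rested on 1 UMI. The Irf4 log2 difference was -1.31 (SE 0.36, adjusted p 0.00633), with adjusted p 0.0548 without BMT replicate 1 and 0.0515 without BMT replicate 2.

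Runx1 was at 0.818 to 2.24 CP10K in Mono and 0.242 to 1.64 in resident mLC, with BMT replicate 2 highest in both. Its log2 difference was -0.72 (SE 0.28, adjusted p 0.0483). The call was lost without any 1 of the libraries, at adjusted p 0.0642 (without BMT replicate 1), 0.161 (BMT replicate 2), 0.165 (BMT replicate 3) and 0.0622 (BMT plus T cells).

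Id2 was at 6.29, 5.44, 4.43 and 4.54 CP10K in Mono, again with the BMT plus T cells library last, and at 9.68, 7.94, 9.54 and 9.08 in resident mLC. All resident values were above all Mono values, and the log2 difference was 0.81 (SE 0.17, adjusted p 7.77e-04). Spi1, the factor shared by the whole lineage, was at 6.53 to 8.20 CP10K in Mono and 6.77 to 8.89 in resident mLC. Its log2 difference was 0.09 (SE 0.12, adjusted p 0.61), and it turned to -0.04 when each sample was centred on its median gene.

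For Runx3 the Mono libraries fell into separate pairs. Mono of BMT replicates 1 and 2 held 6.13 and 6.62 CP10K, while Mono of BMT replicate 3 and of the BMT plus T cells library held 1.72 and 1.62. Resident mLC were level, at 10.80, 8.93, 11.02 and 9.41 CP10K. Library by library, the log2 difference was 0.81, 0.43, 2.61 and 2.47, with the BMT plus T cells library last. The fitted difference was 1.58 (SE 0.36, adjusted p 0.00243), and with cells thinned to 2000 UMIs it was 1.13 (adjusted p 0.116). Thinned to that depth, Runx3 was found in 62.5, 60.2, 20.3 and 10.5% of Mono, in the same library order. The same libraries also differed in where their Mono lay in the deposited latent time, at medians of 0.207 and 0.244 against 0.307 and 0.313.

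**Figure D1:**
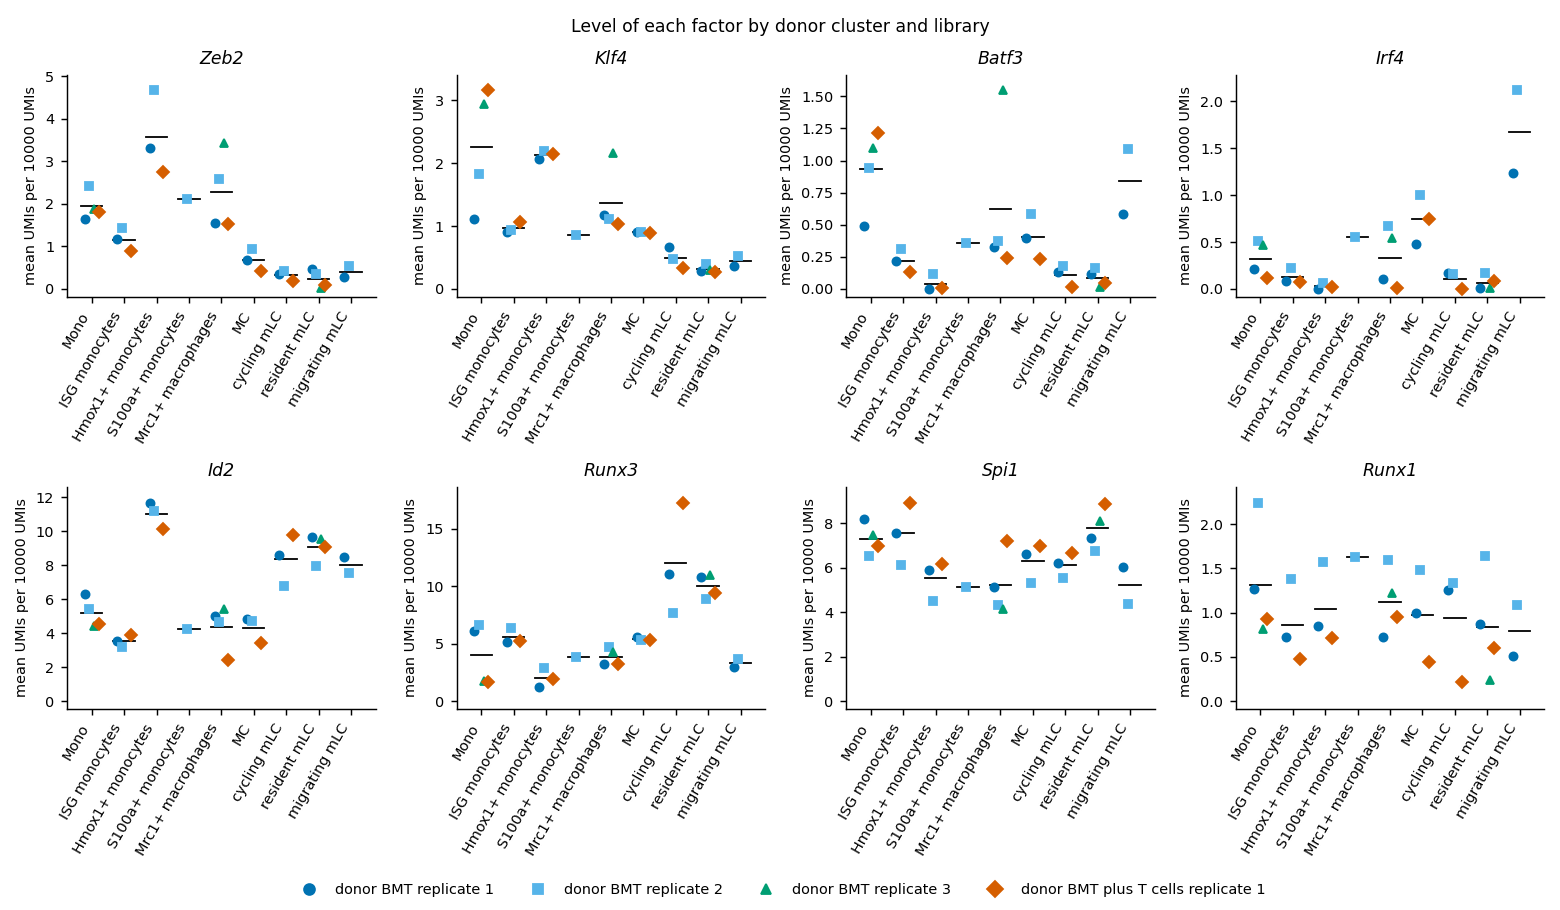
Mean level (UMIs per 10000 UMIs) of the 8 members of the donor table in each cluster, 1 point per library with at least 20 cells and a bar at the mean over libraries. Zeb2 and Klf4 are lowest in resident mLC, Irf4 is highest in migrating mLC, and Runx3 in Mono splits into 2 libraries near 6 and 2 near 1.7.

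Against Mrc1+ macrophages, 7 of 8 members differed in resident mLC, where 31.5% of genes passed. Zeb2 (log2 difference -2.97, SE 0.28), Klf4 (-1.79, SE 0.23) and Batf3 (-1.72, SE 0.35) fell at adjusted p 1.10e-08, 1.21e-06 and 4.65e-04. Id2 rose by 1.10 (adjusted p 2.31e-05) and Runx3 by 1.37 (adjusted p 0.00711). Spi1 rose by 0.60 (SE 0.12, adjusted p 3.14e-04), from levels of 4.15 to 7.21 CP10K in Mrc1+ macrophages to 6.77 to 8.89 in resident mLC. Irf4 had a log2 difference of -1.06 (adjusted p 0.0263) with the sign turned in the BMT plus T cells library (0.76, on 2 UMIs in its Mrc1+ macrophages), and adjusted p was 0.0844, 0.193 and 0.276 without BMT replicates 1, 2 and 3. With cells thinned to 2000 UMIs, 4 members passed in place of 7, and Batf3 (adjusted p 0.485), Runx3 (0.285) and Irf4 (0.175) were those lost. The share of all genes that passed after thinning is not given, so this loss is not shown to be particular to the members.

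MC lay between Mono and resident mLC for Zeb2 and Klf4. Against Mono 2 of 8 members fell, Zeb2 (log2 difference -1.47, SE 0.31, adjusted p 0.00306) and Klf4 (-1.01, SE 0.25, adjusted p 0.0130), where 7.14% of genes passed and 4.03% were lower. Neither passed without the BMT plus T cells library (adjusted p 0.113 for Zeb2 and 0.190 for Klf4) or without BMT replicate 2 (0.106 and 0.226), and 4 members passed without BMT replicate 3. From MC to resident mLC 5 of 8 members changed, where 15.7% of genes passed. Irf4 fell most, with a fitted log2 difference of -2.50 (SE 0.40, adjusted p 6.01e-05). In MC it was at 0.476, 1.01 and 0.742 CP10K in BMT replicates 1 and 2 and the BMT plus T cells library. Within those libraries the difference was -2.40 to -2.04. The fit also draws on resident mLC of BMT replicate 3, which had too few MC.

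Of the other members, Klf4 (log2 difference -1.42, adjusted p 2.40e-04), Zeb2 (-1.35, adjusted p 0.00320) and Batf3 (-1.59, adjusted p 0.00546) fell. Id2 rose by 1.04 (adjusted p 3.49e-04). Within the libraries that had MC, the Batf3 difference was smaller, at -1.37 to -1.18. For Zeb2 the adjusted p was 0.0682 without the BMT plus T cells library and 0.0777 without BMT replicate 2, and for Batf3 it was 0.0936 without BMT replicate 2, where 3 members passed in all. MC held 5.29 to 5.61 CP10K of Runx3, the narrowest range of any cluster with 2 or more libraries, and all of it lay below resident mLC.

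Hmox1+ monocytes had the highest mean of both Zeb2 and Id2. Zeb2 was at 3.30, 4.66 and 2.74 CP10K in BMT replicates 1 and 2 and the BMT plus T cells library, and Id2 at 11.70, 11.21 and 10.13. The Zeb2 range overlapped that of Mrc1+ macrophages, and Zeb2 did not pass against Mono (log2 difference 0.77, SE 0.31, adjusted p 0.0947). Id2 lay above its resident mLC range (7.94 to 9.68 CP10K) in each library, while the mean of Runx3 over libraries was the lowest of any cluster, at 1.24, 2.91 and 1.95 CP10K. Runx3 did not pass against Mono (log2 difference -0.81, adjusted p 0.197), which held less of it (1.62) in the BMT plus T cells library.

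Against Mono 4 of 8 members changed in Hmox1+ monocytes, where 15.5% of genes passed. Id2 rose by 1.11 (SE 0.19, adjusted p 2.50e-04), and Batf3 fell with a log2 difference of -2.77 (SE 0.39, adjusted p 2.24e-05). Irf4 (-1.51, adjusted p 0.0106) and Spi1 (-0.42, adjusted p 0.0272) also fell. Irf4 and Batf3 rested on 4 and 9 UMIs in all Hmox1+ cells, with 0 of either in BMT replicate 1. The 2 weaker calls were lost without BMT replicate 1 (adjusted p 0.107 for Irf4 and 0.232 for Spi1) and without BMT replicate 2 (0.184 and 0.281), leaving 2 members.

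In ISG monocytes and Mrc1+ macrophages, more members passed against Mono by limma-voom than by limma, as did more of all genes. In ISG monocytes 1 of 8 passed, Batf3 (log2 difference -1.55, SE 0.39, adjusted p 0.0285), where 2.38% of genes passed. By limma-voom on summed UMIs 5 members passed there, beside 588 of the 7267 genes tested. Batf3 was lost without BMT replicate 1 (adjusted p 0.0847), BMT replicate 2 (0.388) or the BMT plus T cells library (0.501). In Mrc1+ macrophages 1 of 8 passed, Spi1 (log2 difference -0.51, SE 0.12, adjusted p 0.00692), where 7.86% of genes passed. By limma-voom 5 members passed there, beside 1169 of the 7267 genes tested. Spi1 was lost without BMT replicate 1 (adjusted p 0.131), BMT replicate 2 (0.159) or BMT replicate 3 (0.0526). In S100a+ monocytes 0 of 8 passed in limma, where 1.86% of genes passed, with 2 members at an unadjusted p under 0.05 and 0 by limma-voom. That cluster was measured in BMT replicate 2 alone, so its spread is taken from the other clusters, and its neutrophil markers (2 of 3 listed) summed to 45.6 CP10K beside 0 to 0.691 in every other cluster; their part in the member levels was not tested.

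Irf4 and Batf3 were higher in migrating than in resident mLC. Irf4 was at 1.23 and 2.12 CP10K in migrating mLC of BMT replicates 1 and 2. In resident mLC of the same libraries it was at 0.00945 and 0.170, on 1 and 128 UMIs. The migrating level was the highest Irf4 level of any cluster in both libraries, on 1293 UMIs, and the log2 difference was 3.35 (SE 0.45, adjusted p 6.65e-06). Batf3 was at 0.583 and 1.09 CP10K against 0.120 and 0.163, log2 differences of 1.63 and 2.18 within BMT replicates 1 and 2. The fitted difference was 2.32 (SE 0.44, adjusted p 5.10e-04), above both, since resident mLC of all 4 libraries enter the fit. In Mono Batf3 was as high, at 0.491 to 1.22 CP10K. By the fitted difference Irf4 and Batf3 passed the study's thresholds, as 2.61% of genes did. For Batf3 the difference within BMT replicate 1 was below the log2 limit of 2.

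Runx3 fell in the same cells, from 10.80 and 8.93 CP10K in resident mLC to 2.99 and 3.67 in migrating mLC, a log2 difference of -1.70 (SE 0.46, adjusted p 0.0133). Spi1 fell by 0.51 on the log2 scale (SE 0.15, adjusted p 0.0165). These were 4 of 8 members, where 20.1% of genes passed, 6.81% higher and 13.3% lower. Id2, at 8.51 and 7.57 CP10K, had a log2 difference of -0.21 (adjusted p 0.535), and Zeb2 and Klf4 remained low at 0.272 to 0.545 and 0.358 to 0.516 CP10K.

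Only 2 libraries held migrating mLC. For Runx3 the adjusted p was 0.188 with cells thinned to 2000 UMIs and 0.0575 with the cell filters the study states. Without BMT replicate 1 the adjusted p was 0.203 for Runx3 and 0.148 for Spi1, and 2 members passed. Without BMT replicate 2 it was 0.0813 for Runx3, 0.426 for Spi1 and 0.0767 for Batf3, and Irf4 alone passed. Cycling mLC, by contrast, differed from resident mLC in 0 of 8 members in limma, where 10.7% of genes passed. At an unadjusted p under 0.05 were 2 members, beside 1729 of the 7267 genes tested. By limma-voom 1 member passed, beside 1517 genes.

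**Figure D2:**
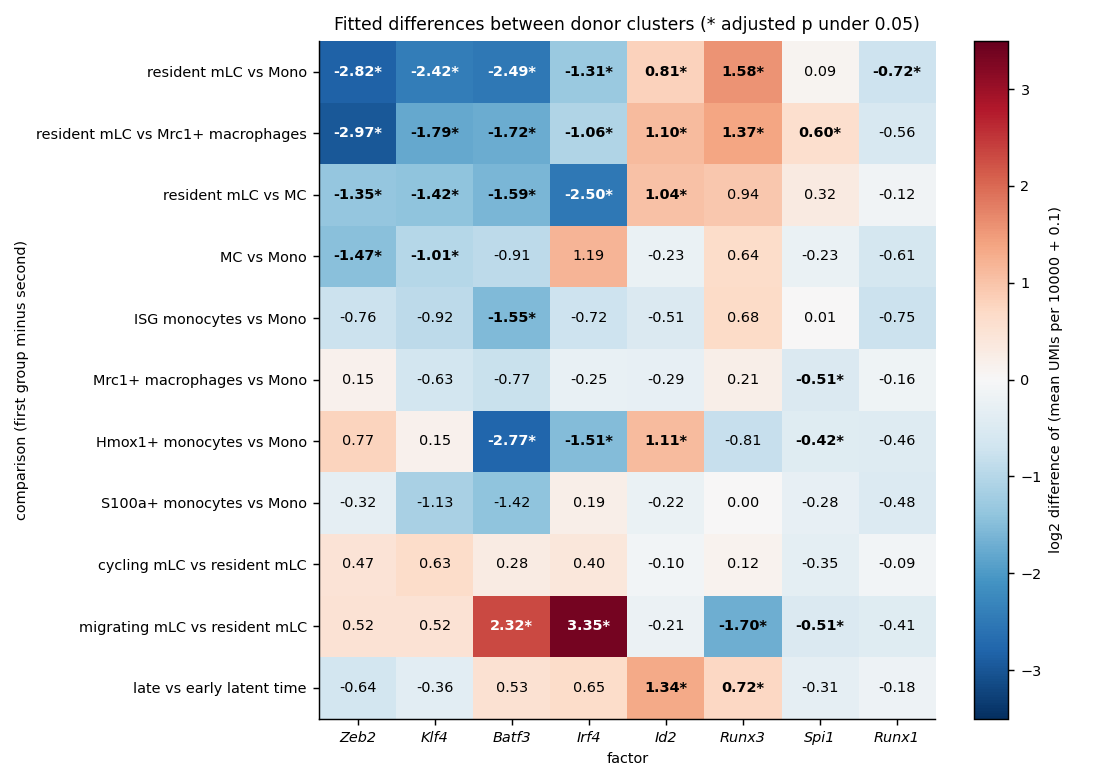
Fitted log2 differences of (mean UMIs per 10000 + 0.1) for 8 members (columns) in 11 comparisons (rows), coloured from blue (lower in the first group) to red (higher), with an asterisk where the adjusted p was under 0.05. The 3 rows of resident mLC are blue for Zeb2, Klf4, Batf3 and Irf4 and red for Id2 and Runx3, while migrating mLC are red for Irf4 and Batf3.

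Over all clusters Irf4 and Batf3 had the widest range of the 8 members. The highest cluster mean was 60.5 times the lowest for Irf4 and 22.7 times for Batf3, both against the few UMIs of Hmox1+ monocytes. The ratio was 15.0 for Zeb2, 7.25 for Klf4, 5.91 for Runx3, 3.13 for Id2, 2.05 for Runx1 and 1.51 for Spi1. For Runx1 and Spi1 the library ranges of every pair of neighbours in the order of clusters overlapped. The mean of Zeb2 was, from high to low, in the order Hmox1+ monocytes (3.57 ± 0.989 CP10K, SD, n = 3), Mrc1+ macrophages (2.27 ± 0.921, n = 4), Mono (1.94 ± 0.340, n = 4), ISG monocytes (1.16 ± 0.266, n = 3) and MC (0.682 ± 0.249, n = 3), and the mLC clusters held 0.545 CP10K or less in every library. S100a+ monocytes (2.12, n = 1) are left out of that order. Of the steps named, only that from Mono to ISG monocytes had library ranges that did not overlap.

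Detection was also compared at equal depth, with cells thinned to 2000 UMIs and shallower cells left out (182, 770 and 38 cells of the 3 BMT libraries and 87 of the BMT plus T cells library). Zeb2 was then found in 27.8 to 36.8% of Mono and 2.13 to 5.59% of resident mLC over the 4 libraries. In keratinocytes, which should lack it, the thinned share was 0.0353% (BMT) and 0.0386% (BMT plus T cells). Runx3 was found in 53.2 to 75.1% of resident mLC and in no thinned keratinocyte, and Id2 in 63.8 to 76.7% of resident mLC and 9.49 to 11.4% of keratinocytes. Irf4 was found in 13.3 to 23.9% of migrating mLC, in 0 to 2.66% of resident mLC and in 0.0386 to 0.176% of keratinocytes. Klf4 cannot be read against that background, since 52.6 to 60% of thinned keratinocytes held it, and they express it themselves.

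Among the 8 members, Zeb2 and Klf4 followed each other most closely over the 27 library and cluster means. Pearson's r of their log2 levels, after the mean of each library was subtracted, was 0.92. The next pairs were Irf4 and Batf3 (0.71) and Zeb2 and Runx1 (0.63), while Runx3 ran against Klf4 (-0.77) and Zeb2 (-0.72). These are descriptions over means that share libraries and cell totals.

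Over all genes tested, the genes most like Zeb2 by the same measure were Lpxn and Dab2 (0.95 each), and those most like Klf4 were Metrnl and Parvb (0.95 each). Runx3 was followed by Dpysl2 (0.94) and Spint1 (0.91), Irf4 by Ccl22 and Trerf1 (0.84 each), and Batf3 by Sema4a (0.83) and Esyt1 (0.81). Id2 had no gene above 0.78 (Bend4). Spi1 was followed by Fau (0.85) and Ptpn6 (0.83), and Runx1 by Irf2bp2 (0.85) and Zcchc24 (0.81).

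**Figure D3:**
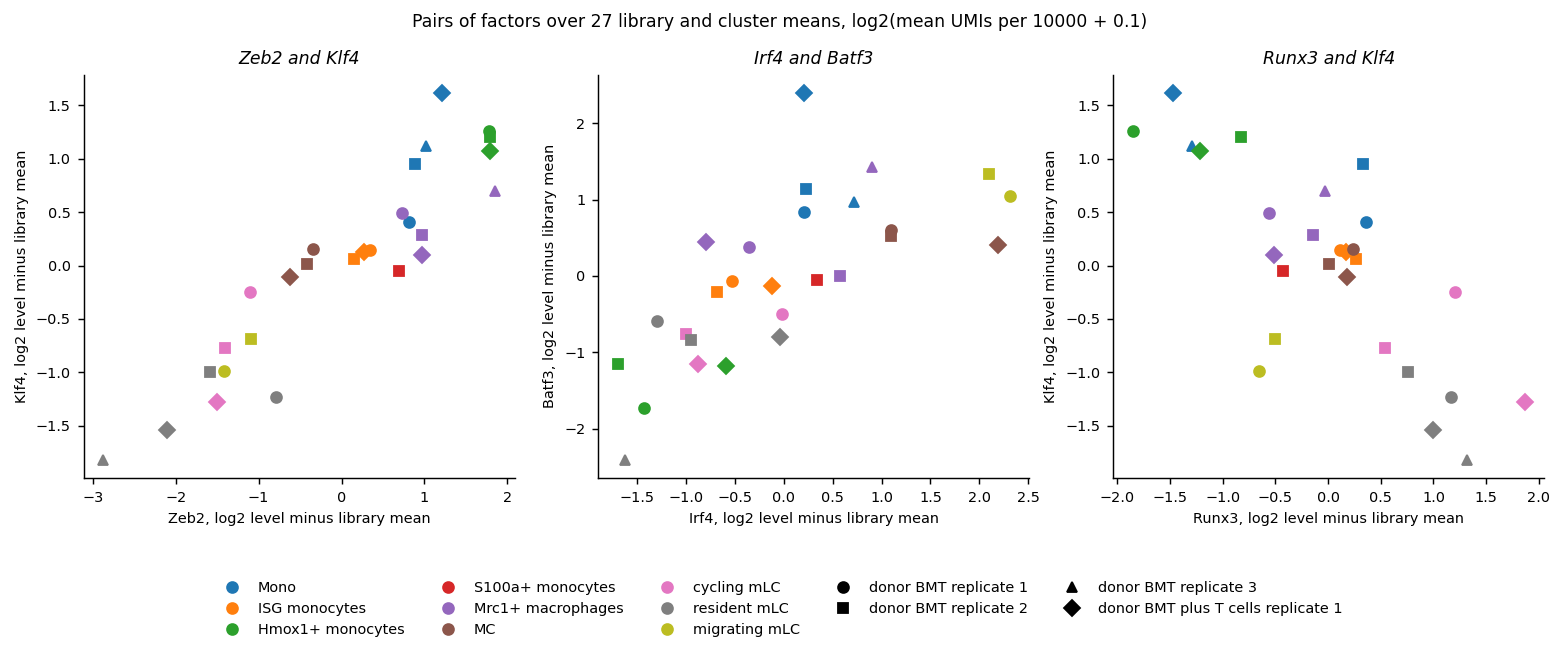
Log2 levels of 3 pairs of members over 27 library and cluster means, each minus the mean of its library, with colour for the cluster and shape for the library. Zeb2 and Klf4 rise together from resident mLC to Mono and Hmox1+ monocytes, Irf4 and Batf3 are both high in migrating mLC, and Runx3 and Klf4 run in opposite directions.

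Other lineage factors, listed beside the members, moved in resident mLC as follows. Of 16 monocyte and macrophage factors 9 were tested against Mono, and 7 fell, where 14.3% of all genes fell, with Maf (log2 difference -3.04, adjusted p 1.41e-07), Klf2 (-2.67, adjusted p 6.42e-07), Nr1h3 (-2.13, adjusted p 1.11e-07) and Tfec (-1.66, adjusted p 7.17e-06) the largest. The median of the 9 was -1.52, beside 0.14 over all genes tested. Of 18 dendritic and Langerhans cell factors 12 were tested, and 1 rose, Ahr (1.95, adjusted p 5.05e-05), while 5 fell, among them Nfil3 (-1.62), Etv3 (-1.50) and Batf (-1.05).

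In migrating against resident mLC, 6 of the 12 tested factors of the dendritic cell list rose and 0 fell, where 6.81% of all genes rose and 13.3% fell. They were led by Nr4a3 (log2 difference 5.35, adjusted p 3.63e-09), a marker that names the cluster, Etv3 (3.39, adjusted p 2.81e-07), Rel (2.31, adjusted p 9.62e-07) and Relb (2.24, adjusted p 1.41e-06). Rel and Relb encode NF-kB subunits. Of 9 monocyte and macrophage factors 2 rose, Bhlhe40 (1.89, adjusted p 0.00470) and Klf6 (1.46, adjusted p 5.82e-05).

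Latent time, a per-cell value from 0 to 1 that the study derived from RNA velocity and deposited, was cut into 5 groups of equal cell number over all donor cells. Group 1, the earliest, was 47.9% ISG monocytes and group 5 was 52.5% resident mLC, while Mono lay at a median of 0.246. Mrc1+ macrophages were the largest part of groups 3 and 4 (34.7% and 36.7%), beside 20.2% of group 1 and 7.73% of group 5. The groups thus differ in their mix of clusters, and its part in the member levels along latent time was not tested. Latent time comes from the RNA of these same cells, so a test between its groups is not independent of the tests between clusters. Of 8 members 2 rose from group 1 to group 5, where 32.4% of the 7166 genes tested passed and 21.3% were higher. Id2 rose by 1.34 (SE 0.19, adjusted p 2.39e-05), from 3.20, 3.00 and 4.63 CP10K in BMT replicates 1 and 2 and the BMT plus T cells library to 8.33, 7.74 and 9.32. Group 1 of BMT replicate 3 had under 20 cells and was left out there, and its group 5 held 9.19 CP10K. With latent time cut into groups of equal width the Id2 difference was 0.35 (adjusted p 0.526).

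Runx3 rose by 0.72 (SE 0.22, adjusted p 0.0157), but not evenly. It was at 5.05, 6.11 and 5.23 CP10K in group 1 and at 3.85, 4.90 and 3.14 in group 3, which were not tested against each other, and stood at 9.47, 7.05 and 9.72 in group 5. Runx3 was thus lowest in the middle of the axis, in group 3 or 4 of all 4 libraries. Its call was lost without BMT replicate 1 (adjusted p 0.0884), without the BMT plus T cells library (0.0876) and with cells thinned to 2000 UMIs (0.150), and in 8 of 16 alternatives in all.

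Zeb2 ran the other way in 3 of 4 libraries. It peaked in group 3 or 4, at 2.50, 2.81 and 1.74 CP10K in BMT replicates 2 and 3 and the BMT plus T cells library, and stood at 0.458, 1.03 and 0.320 in group 5. In BMT replicate 1 it was 1.04 in group 1 and 1.57 in group 5. Zeb2 did not pass between groups 1 and 5 (log2 difference -0.64, adjusted p 0.222).

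Over single cells, Spearman's coefficient with latent time was 0.235 to 0.283 for Id2 over the 4 libraries. It was -0.202 to 0.00366 for Zeb2, -0.138 to -0.0589 for Klf4 and -0.0865 to -0.0124 for Runx1. The sign was mixed for Runx3 (-0.0673 to 0.147), Spi1 (-0.0639 to 0.0975), Irf4 (-0.0769 to 0.0684) and Batf3 (-0.109 to 0.0435). These are descriptions over cells that share libraries.

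**Figure D4:**
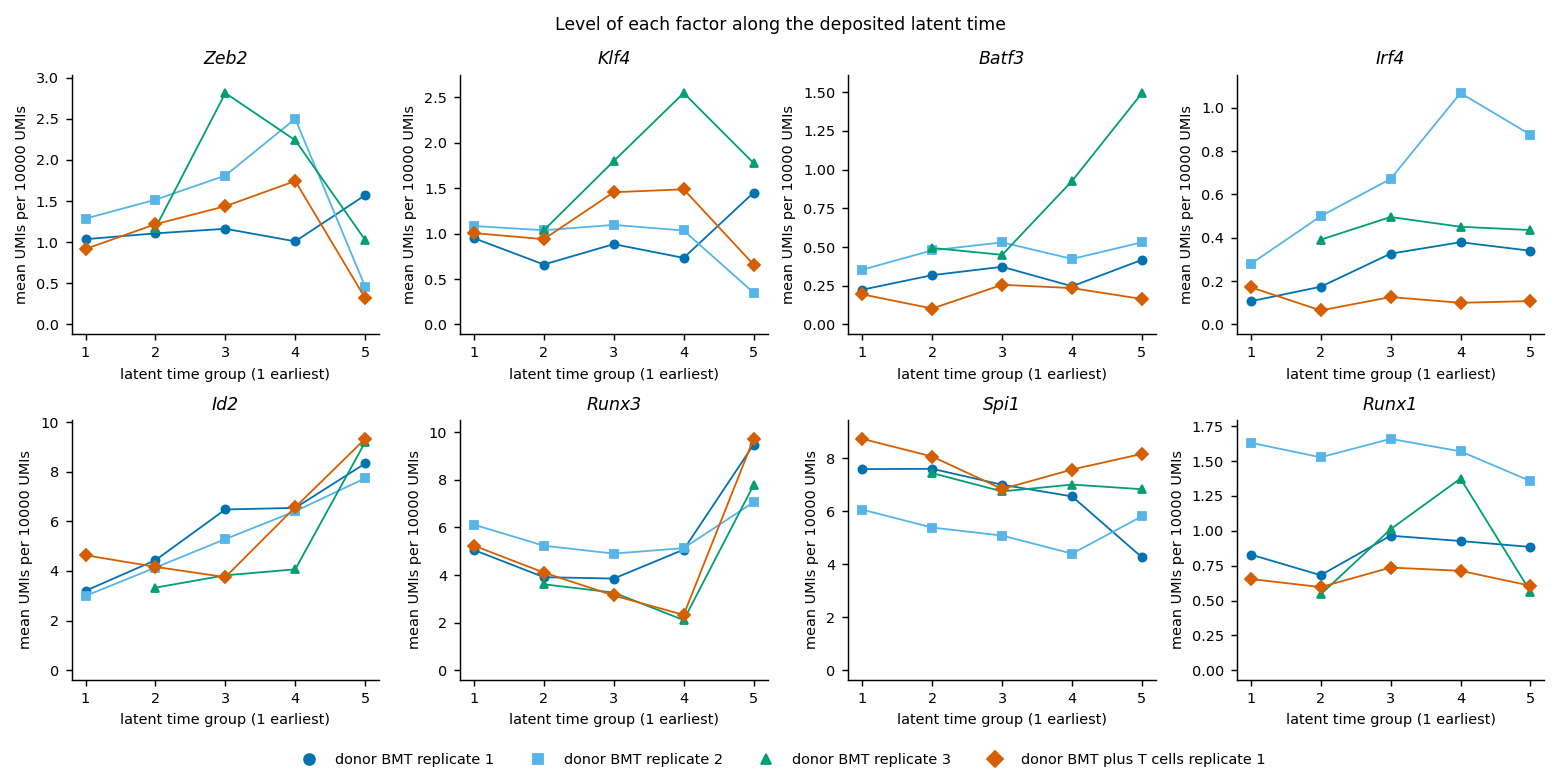
Mean level (UMIs per 10000 UMIs) of 8 members in each of 5 equal groups of cells by the deposited latent time, 1 line per donor library, with groups under 20 cells left out. Id2 ends higher than it starts in each library, Runx3 dips in the middle, and Zeb2 peaks in group 3 or 4 in 3 of 4 libraries.

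Between the labels, the members were compared on their mean over the 3 clusters with at least 20 cells in all 4 libraries (Mono, Mrc1+ macrophages and resident mLC). In the 1 BMT plus T cells library against 3 BMT libraries 0 of 8 members passed in limma, where 0% of the 7345 genes tested passed, with 0 members at an unadjusted p under 0.05 and 0 genes by limma-voom. The lone library is taken to vary like the others. Irf4 was at 0.0663 CP10K in the BMT plus T cells library against 0.110, 0.449 and 0.340 in the BMT libraries, below all 3 but close to replicate 1. Id2 was at 5.34 against 6.99, 6.02 and 6.46, and Runx3 at 4.76 against 6.71, 6.77 and 5.68.

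The short names of the libraries come in 2 forms, 1 for BMT replicates 1 and 2 and 1 for BMT replicate 3 and BMT plus T cells. Between these pairs 0 of 8 members passed in limma, where 1.87% of genes passed. At an unadjusted p under 0.05 were 3 members, beside 1138 of the 7345 genes tested. Klf4 was at 0.856 and 1.11 CP10K in the first pair and 1.80 and 1.49 in the second, and Batf3 at 0.314 and 0.492 against 0.887 and 0.501. Runx1 was at 0.956 and 1.83 against 0.760 and 0.828. The pairs did not overlap for these 3 genes, nor for Runx3 (6.71 and 6.77 against 5.68 and 4.76). The share of all genes that separate the pairs was not counted, so this is not shown to be particular to the members. Label and library name cannot be told apart for the BMT plus T cells library.

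The host library shows the same factors in cells of the recipient, at 781 cells and 4376 median UMIs, in 7 numbered clusters without a name. With 1 library there is no test, and the values carry exact 95% Poisson intervals that cover counting error only. Clusters 1 to 4 held Cd207, at 1.72, 20.2, 2.75 and 4.69 CP10K. Cluster 5 held Krt14 at 205 CP10K and cluster 6 Cd3e at 40.1, keratinocyte and T cell genes. Of the 781 cells, 133 had under 500 genes and 208 over 20% mitochondrial UMIs, the limits the study states.

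Irf8, the partner of PU.1 in dendritic cells, was at 7.93 CP10K (7.23 to 8.68) in host cluster 4. It was at 0.899 in clusters 1 and 3 and 1.65 in cluster 2. Cluster 4 also held the most Irf4, at 1.20 (0.943 to 1.52) beside 0.150, 0.114 and 0.0759 in clusters 1 to 3, and the most Batf3, at 0.954 (0.723 to 1.24) beside 0.0441, 0.127 and 0.0759.

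Runx3 was the reverse, at 2.24 CP10K (1.88 to 2.66) in cluster 4 and 18.3, 8.63 and 17.7 in clusters 1 to 3. In cluster 4 Ccr7, which marks migrating mLC among donor cells, was at 4.40 CP10K, and at 0.038 or less in clusters 1 to 3.

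Zeb2 was low in all host clusters, at 0.152 to 0.318 CP10K in clusters 1 to 4 with intervals that overlapped. Klf4 was at 0.127 to 0.251 in the same clusters and at 4.76 (4.41 to 5.12) in cluster 5, the Krt14 cluster. Spi1 was at 5.06 (4.57 to 5.58) in cluster 2, 2.85 in cluster 4, and 0.934 and 1.44 in clusters 1 and 3. Clusters 1 and 3 thus combined the most Runx3 with little Spi1, and were the highest for Runx1 (1.76 and 1.33). Id2 was at 4.35 to 6.71 in clusters 1 to 4 and at 9.20 (7.83 to 10.7) in cluster 6, the Cd3e cluster.

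Cebpb, a monocyte factor that keratinocytes also use, was highest in cluster 6 (1.88, 1.30 to 2.65) and cluster 5 (0.939), and at 0.167 to 0.761 in clusters 1 to 4. In the keratinocyte libraries it was at 1.19 (BMT) and 1.20 CP10K (BMT plus T cells), and reached 4.97 and 4.55 in the cells annotated as follicular. Klf4 was at 4.65 and 5.62 in keratinocytes and highest in those annotated as differentiated (8.05 and 9.29). Irf8 had 0 UMIs in both keratinocyte libraries (upper bounds 0.00133 and 0.00148 CP10K by the same intervals), and Zeb2, Runx3, Irf4, Spi1 and Batf3 were at 0.0129 or less.

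**Figure D5:**
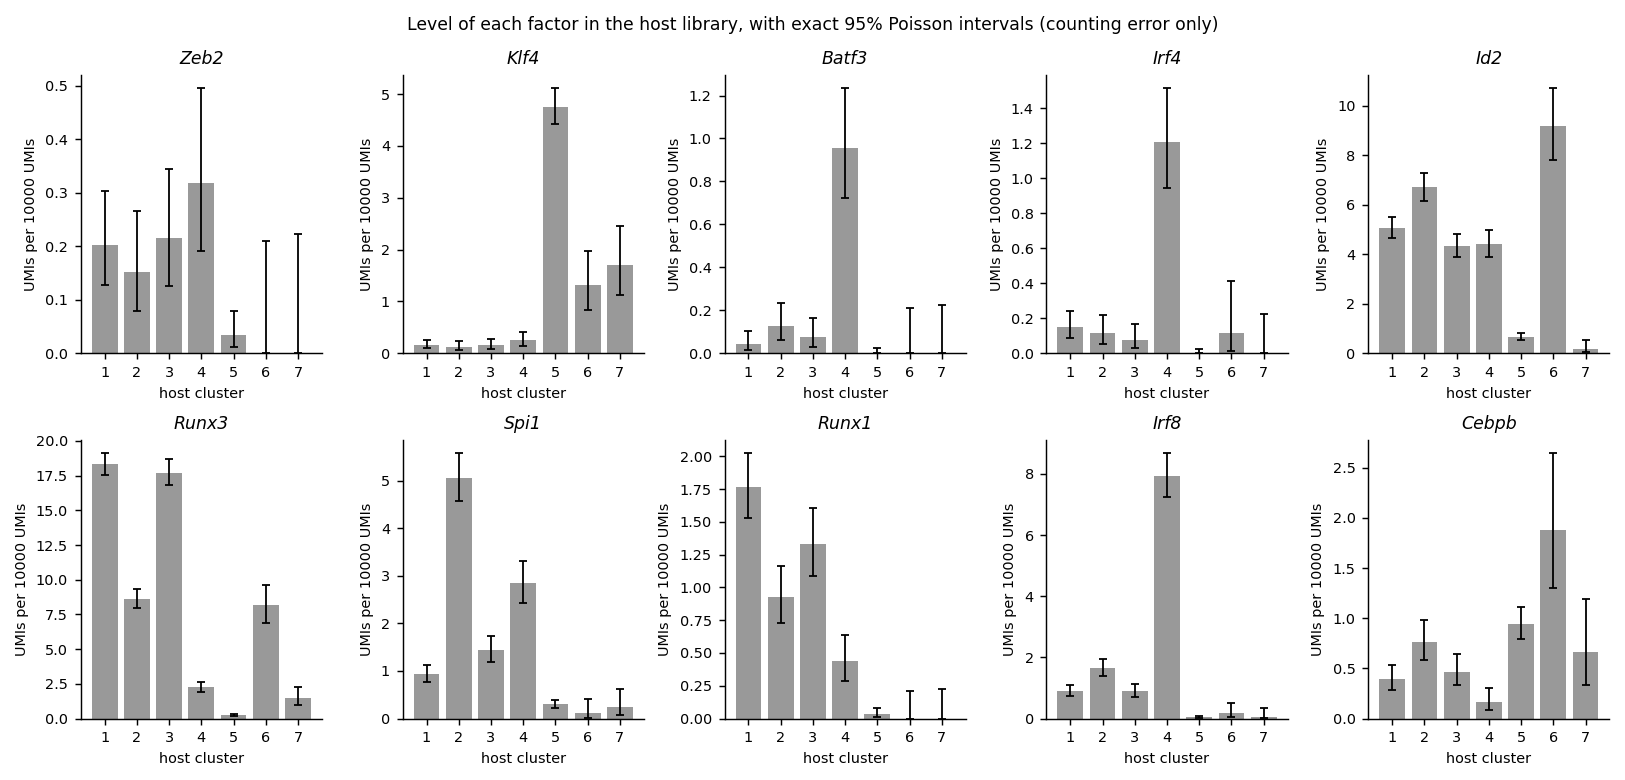
Level (UMIs per 10000 UMIs) of the 10 members in 7 clusters of the host library, bars from 0 with exact 95% Poisson intervals for counting error. Irf8, Irf4 and Batf3 stand highest in cluster 4, where Runx3 is low, and Klf4 in cluster 5.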

How the data were processed

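Sorted epidermal cells were profiled by 10x 5′ single-cell RNA sequencing. Per the labels and the submitters' processing notes, reads were mapped with kallisto and bustools to GRCm38, and cells were filtered, clustered and named with Seurat. The deposited expression tables hold the natural log of 1 plus UMIs per 10000, made by the authors; the deposited metadata hold mitochondrial percent, latent time as a fraction, cell totals as counts and the cluster names. UMIs were recovered from the log values by taking the smallest non-zero value of each cell as 1 UMI, which also gave the cell's total. Of the recovered values 100% were whole within 0.001. The listed genes carried a median of 91.3% of a donor cell's UMIs.

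Levels were averaged per library and cluster with at least 20 cells. Differences were fitted with limma 3.58.1 (R 4.3.3, trend and robust) on log2(CP10K + 0.1), for genes averaging 0.1 CP10K or more, with cluster and library terms. Such differences understate changes of low genes. Samples are libraries of pooled mice, grouped by the labels. Between clusters or latent-time groups, library was a term of the fit, so p-values measure how the differences vary from library to library. For clusters that spread is shared over all 27 library and cluster means, also for clusters found in fewer than 4 libraries. For those clusters a fitted difference can lie outside the differences within single libraries. Between labels or library names, p-values measure the spread between the 4 libraries. Either spread may be technical. The named genes are the 10 members, at most 4 further factors of each list in a comparison, and the 2 genes most alike in pattern. A further list of factors is not reported here. The members and lists were chosen with earlier results of these data known. The study's methods state that likely doublets were removed with DoubletFinder, and no further caller was run here. The filters the study states (500 genes, 20% mitochondrial) were an alternative, since 72 and 181 donor cells and 133 and 208 host cells fell outside them. The number of UMIs per library limits precision: 2.98e+06 to 6.43e+07 in donor cells. Alternatives were other pseudocounts, filters, cell minimums, centring, thinning to 2000 UMIs, limma-voom, no library block, only the clusters compared, other latent-time groups and leaving out each library. The fit was tested on simulated data.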

Additional observations from a re-analysis of the deposited data

Results flagged for a closer look

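In 9 of 64 member comparisons that had the BMT plus T cells library and at least 2 BMT libraries, the BMT plus T cells library moved opposite to every BMT library with both clusters. The share of such comparisons over all genes was not counted, so 9 of 64 is not shown to be unusual. The differences between the libraries were not tested, and label and library name cannot be told apart for that library. Against Mono, its Runx3 log2 difference was 1.66 in MC (BMT libraries -0.32 to -0.13), 1.64 in ISG monocytes (-0.24 to -0.06) and 0.25 in Hmox1+ monocytes (-2.21 to -1.16). These 3 values share its 63 Mono cells, in which Runx3 was at 1.62 CP10K.

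Spi1 against Mono was 0.35 in ISG monocytes of that library (BMT libraries -0.11 to -0.09) and 0.0418 in Mrc1+ macrophages (-0.84 to -0.58). Klf4 in Hmox1+ monocytes against Mono was -0.54 (0.25 to 0.85). Irf4 in resident mLC against Mrc1+ macrophages was 0.76 (-2.52 to -0.94), on 15 and 2 UMIs. In cycling against resident mLC, Id2 was 0.11 (-0.23 to -0.17) and Batf3 -0.34 (0.09 in both BMT libraries), the latter on 1 UMI in cycling mLC.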

How the results depend on the processing

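Of 33 member differences that passed, 14 passed under every alternative run, 19 were lost under 1 or more, and 0 turned sign. Alternatives for differences that had not passed were compared in resident mLC against Mono and in migrating against resident mLC, and 4 turned sign: Spi1 in resident mLC against Mono (-0.0377) and Id2 in migrating against resident mLC (0.0035) with samples centred on the median gene, Zeb2 in migrating mLC (-0.0606) with only the clusters compared in the fit, and Runx1 in migrating mLC (0.087) without the library block. The cause was not tested for any of these changes.

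The number of members that passed moved as follows, with each comparison named by its first cluster and the second being Mono unless given. With the mean of the deposited log values it was 4 in MC, 3 in ISG monocytes and 3 in Mrc1+ macrophages. It was then 5 between late and early latent time and 2 between the pairs of library names. With cells thinned to 2000 UMIs it was 1 in MC, 0 in ISG monocytes, 2 in Mrc1+ macrophages and 4 in resident mLC against Mrc1+ macrophages. With the study's stated cell filters it was 4 in MC, 2 in ISG monocytes, 3 in Mrc1+ macrophages and 5 for latent time. With only the clusters compared it was 1 in MC and 0 in ISG monocytes and Mrc1+ macrophages. In ISG monocytes it was 0 at a pseudocount of 0.01 and 2 at 1. Without the filter on low values it was 0 in ISG monocytes and 1 for latent time. With at least 50 cells it was 3 in ISG monocytes and 3 in Mrc1+ macrophages. With centring it was 2 in ISG monocytes and 2 in Mrc1+ macrophages. With limma-voom it was 5 in ISG monocytes, 5 in Mrc1+ macrophages, 1 in cycling against resident mLC and 5 for latent time, where 3108 of the 7166 genes tested passed. For the other alternatives the share of all genes that passed is not given, so their member counts are not set against it.

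Libraries contribute several clusters each, which pairs the cluster means by design. Without this replicate block the number was 5 in resident mLC, 0 in ISG monocytes, 0 in Mrc1+ macrophages, 2 in Hmox1+ monocytes and 1 for latent time. Leaving out 1 library at a time gave 5 to 6 in resident mLC, 0 to 4 in MC, 0 to 1 in ISG monocytes, 0 to 1 in Mrc1+ macrophages, 2 to 5 in Hmox1+ monocytes, 6 to 7 against Mrc1+ macrophages, 3 to 5 against MC, 1 to 4 in migrating mLC, 2 to 2 for latent time (Id2 in each, with Irf4 in place of Runx3 without the BMT plus T cells library and Zeb2 without BMT replicate 1) and 0 to 1 between the pairs. It gave 0 in S100a+ monocytes, cycling mLC and between the labels. S100a+ monocytes without BMT replicate 2 or with only the clusters compared, and the labels without the BMT plus T cells library, could not be fitted.

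Over all genes, limma-voom passed 3857 in resident mLC against 2375, 1401 in MC against 519, 588 in ISG monocytes against 173, 1169 in Mrc1+ macrophages against 571 and 393 in S100a+ monocytes against 135. It passed 3971 against 2292 and 2891 against 1140 in resident mLC against Mrc1+ macrophages and MC, 3758 against 1464 in migrating mLC, 1517 against 779 in cycling mLC and 307 against 137 between the pairs. The same filters on host cells, an alternative chosen after seeing the data, left 58 of 60 member levels within their intervals. Low UMI totals limit values such as Irf4 and Batf3 in Hmox1+ monocytes, on 4 and 9 UMIs.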
